A study of Mus musculus with 12 samples.

Results

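A set of 10 genes of intestinal fat absorption was followed through RNA sequencing of mouse intestinal crypts and of the monolayers grown from them. They are Npc1l1, Fabp1, Fabp2, Dgat1, Dgat2, Mttp, Apob, Apoa1, Apoa4 and Apoc3. The genes were taken by symbol, through their Ensembl identifiers without the version number, and all 10 were found among 55487 genes in the count tables. All 10 passed the filter on low counts. The libraries were made from C57BL/6 mice in 4 groups of 3. SI tissue and LI tissue were crypts freshly isolated from the small and the large intestine, with a mouse behind each library. SI monolayers and LI monolayers were crypts of each region seeded on Matrigel and grown for 24 h in control medium (WENR, which carries Wnt, EGF, Noggin and R-spondin), with pooled wells behind each library. The mice were males or females aged 6 to 10 weeks, and no group received an oncology drug. The seeding medium, used before WENR, also held small-molecule inhibitors of GSK, BMP receptors and ROCK. By the methods, pieces of large intestine were also kept with the ROCK inhibitor during isolation. Effects of these inhibitors cannot be told apart from those of culture. For monolayers, the methods took jejunum and large intestine from the same mice. SI crypts were released with EDTA and passed through strainers to remove villi, whereas LI crypts were released with collagenase, dispase and EDTA, so region and isolation method cannot be told apart.

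Dietary triglyceride is split in the gut lumen into fatty acids and monoglyceride, which enterocytes of the small intestine take up, carry through the cytosol on fatty acid binding proteins and join again into triglyceride. Microsomal triglyceride transfer protein loads this triglyceride onto apolipoprotein B in the endoplasmic reticulum, and the particle gains the smaller apolipoproteins and leaves the cell as a chylomicron. Absorption of this kind is known for the villus enterocytes of the jejunum and is not a main task of the colon.

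Library totals ran from 59016196 to 76216530 counts, which puts 3 counts at 0.0394 to 0.0508 CPM (counts scaled by library total), and the 10 genes took 0.959% to 1.35% of all counts in SI tissue and 0.392% to 0.401% in SI monolayers. Their share was 0.0277% to 0.0457% for LI tissue and 0.0269% to 0.0293% for LI monolayers. The region labels were checked on Sis, the sucrase-isomaltase of the small intestine, which averaged 211500 normalized counts in SI tissue and 846.5 in LI tissue. Summed over 10 villus enterocyte markers, levels ran from 835500 to 1257000 normalized counts for SI tissue and from 333000 to 342100 for SI monolayers. The same sum ran from 169400 to 209900 for LI tissue and from 96120 to 103000 for LI monolayers. Most of it in both LI groups was Krt20 and Vil1, at 81220 to 108200 and 62320 to 72420 in LI tissue. The sum is therefore no measure of small intestinal enterocytes in the LI groups. SI tissue library 3 had the lowest villus enterocyte sum and the highest sum of 6 Paneth cell markers of its group, at 1537000 against 324100 and 614300. In bulk samples such as these, fewer cells of a type and less RNA per cell cannot be told apart. Summed over 5 adipocyte markers the levels were at most 26.5 normalized counts in any library. The sum of 6 hepatocyte markers was 155.9 to 748.1 in the SI groups and LI monolayers and 1165 to 2070 in LI tissue, nearly all of it Ttr (transthyretin, at 2000, 1134 and 2020 in LI tissue), with albumin (Alb) at most 49.99. Fgb, Serpina1a, Cyp7a1 and Ahsg, also on that list, had 0 counts in every LI tissue library. The LI tissue sums, nearly all Ttr, exceed the levels of Apoa4, Fabp1 and Apoc3 there, and their part in those levels was not tested. Mitochondrially encoded genes took 4.56% to 9.16% of counts in SI tissue, 2.25% to 2.59% in LI tissue and 0.472% to 0.75% in monolayers.

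**Figure D1:**
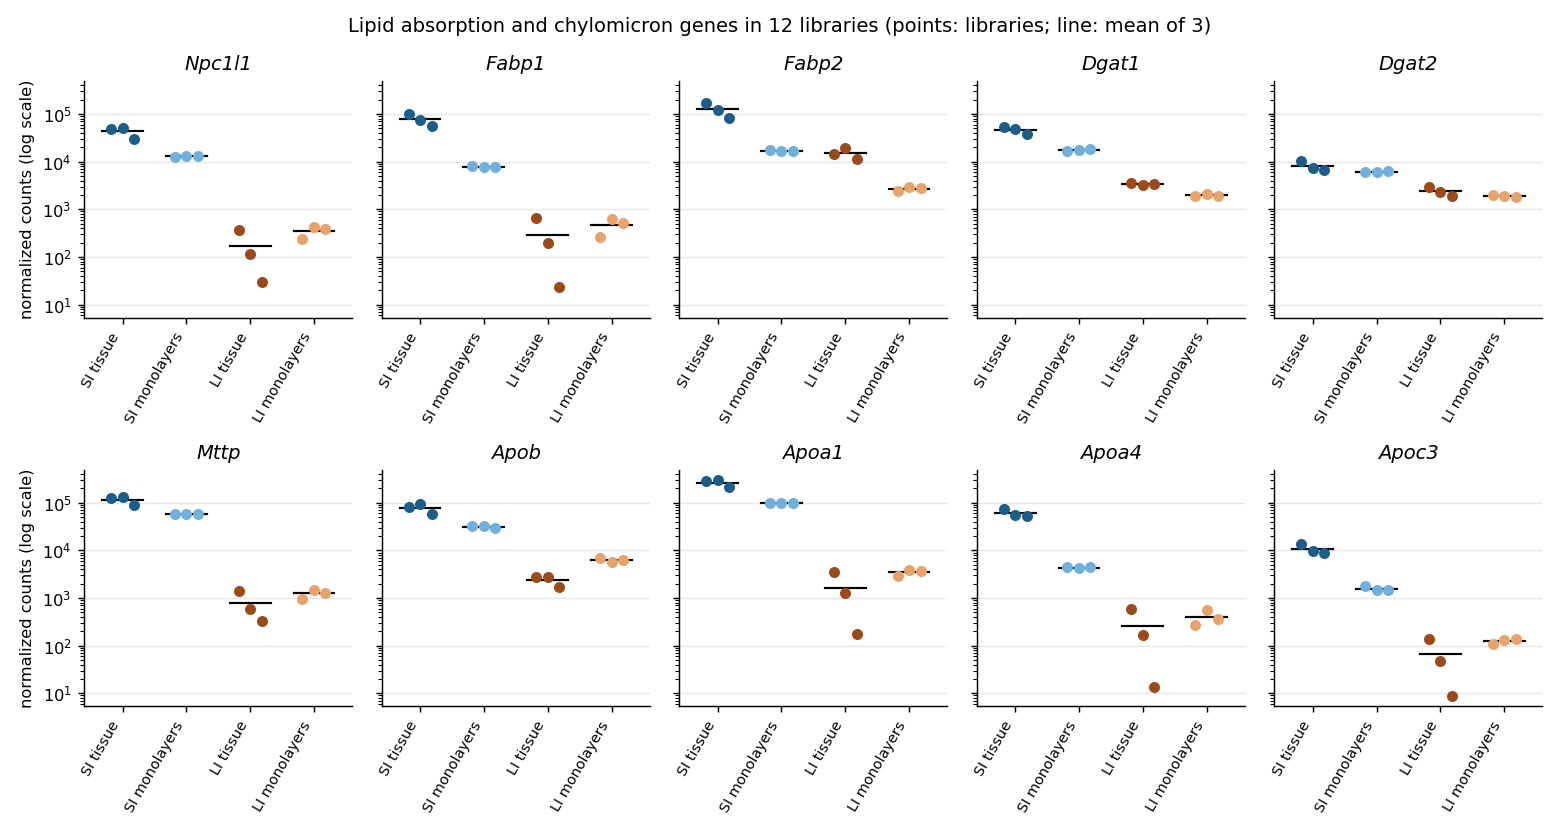
Each panel shows 1 gene, with normalized counts on a log axis for the 3 libraries (points) of each of the 4 groups and the group mean (line). All 10 genes were higher in every SI tissue library than in every LI tissue library. The share of all tested genes without overlap was not counted, so nothing particular to the 10 can be read from this. The LI tissue libraries were spread widely for 6 of the 10, from 13.4 to 594.8 normalized counts for Apoa4.

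The first comparison asked how the 2 regions differed in the animal. All 10 genes were higher in SI tissue than in LI tissue, without overlap between the libraries of the groups. How many of all tested genes lacked overlap was not counted, so nothing particular to the 10 can be read from it. A gene was called when edgeR's quasi-likelihood test gave a Benjamini-Hochberg adjusted p under 0.05 over all tested genes and the log2 fold change was at least 1 in size. By that rule 10 of 10 were called higher, where 11.6% of the 19581 genes tested were called higher and 11.1% lower. With no minimum fold change, 5717 of the genes tested passed as higher and 4841 as lower. The median log2 fold change of the 10 was 7.33, against 0.06 over all genes tested. The log2 differences fell into a high and a low set, with Npc1l1, Fabp1, Apoa4, Apoc3, Apoa1 and Mttp between 7.28 and 8.10 and Apob, Dgat1, Fabp2 and Dgat2 between 1.79 and 5.04.

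After 24 h in culture the regional difference was still present and its value was smaller for each of the 10, a change that passed the test of the interaction below for 5 of them. All 10 were called higher in SI monolayers than in LI monolayers, where 12.4% of all tested genes were called higher and 8.88% lower. The median log2 fold change of the 10 was 3.58, against 0.02 over all genes tested. Mttp had the largest difference among the 10, at 5.58, and Dgat2 the smallest, at 1.72.

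The change with culture was then examined in each region. In SI monolayers 7 of 10 were called lower than in SI tissue and none higher, where 16.4% of all tested genes were called lower and 9.71% higher. The median log2 fold change of the 10 was -1.56, against -0.05 over all genes tested. Apoa4, Fabp1, Fabp2 and Apoc3 fell the most, by 3.78, 3.28, 2.87 and 2.73 on the log2 scale. Apoa1, Mttp and Dgat2 did not pass the test. In the same comparison 6 of 10 villus enterocyte markers were called lower, with a median of -2.51, and the part of this in the values of the lipid genes was not tested.

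In LI monolayers only Apob was called higher than in LI tissue and only Fabp2 lower among the 10, where 14.5% of all tested genes were called higher and 23.5% lower. The median log2 fold change of the 10 was 0.73, against -0.05 over all genes tested. In the same comparison 7 of 8 colonocyte markers, 6 of 6 goblet cell markers and 7 of 8 immune markers were called lower. Called higher were 4 of 6 enteroendocrine markers (median 2.21), 2 of 6 endothelial and lymphatic markers and 1 of the 8 immune markers. The stem cell and mesenchymal lists had members called in both directions. The part of these changes in the values of the lipid genes was not tested. The count of the 10 rested on LI tissue library 1. Without it 8 of the 10 were called, since Apoa1, Apoa4, Apoc3, Mttp, Fabp1 and Npc1l1 were then higher in LI monolayers, with Apoa1 at 2.31 and Npc1l1 at 2.28 on the log2 scale (adjusted p = 0.0187 and 0.00577). In that fit 2935 of 20200 tested genes were called higher and 4570 lower.

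The change with culture differed between the regions for 5 of the 10. In edgeR's test of the interaction of region and culture, Apoa4, Fabp1, Apoc3, Npc1l1 and Apob had a more negative change in SI than in LI, where 8.51% of all tested genes were called in this direction and 11.4% in the other. Fabp2, with -0.42 on the log2 scale (95% confidence interval -1.29 to 0.46), and Dgat2, with -0.07 (-0.64 to 0.49), did not pass. Apoa1 at -2.54 (adjusted p = 0.0858) and Mttp at -1.70 (adjusted p = 0.0576) did not pass either, but both did with DESeq2 or without LI tissue library 1 (-3.71 and -2.45), and Apoa1 also without LI tissue library 3 (-2.00). Dgat1 stood at -0.63 (adjusted p = 0.00136), under the fold threshold.

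**Figure D2:**
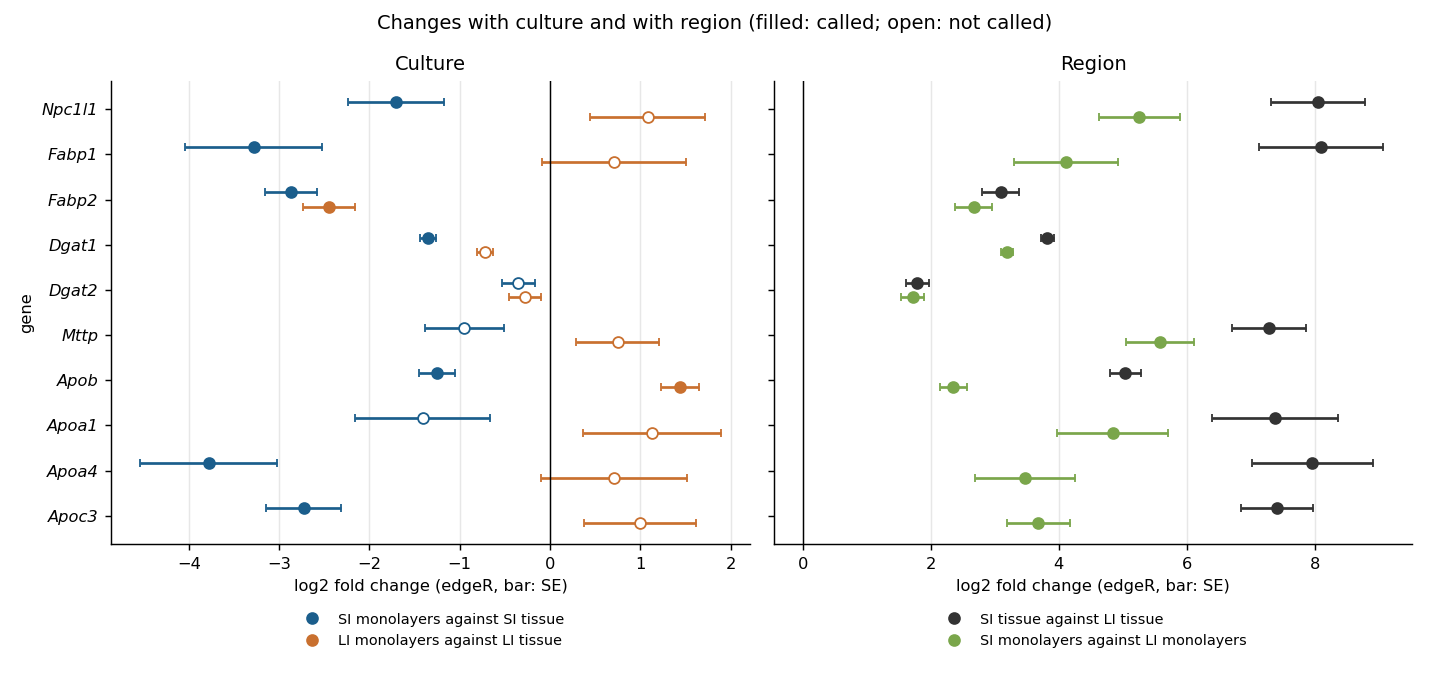
Log2 fold changes of the 10 genes with their standard errors (bars), on the left for monolayers against tissue in each region and on the right for SI against LI in each preparation. Filled points were called and open points were not, so that all points on the right are filled, and on the left 7 are filled for SI and 2 for LI (Apob at 1.44 and Fabp2 at -2.45).

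Uptake of cholesterol came first in the order of function. Npc1l1 (ENSMUSG00000020447, chr11:6211013-6230143 of GRCm38, reverse strand) encodes the brush border transporter that takes up cholesterol and is the target of ezetimibe. It had 48460, 51140 and 30330 normalized counts in SI tissue and 12830, 12980 and 12970 in SI monolayers. In LI tissue it had 362.7, 116.2 and 30.4, and in LI monolayers 235.9, 424.7 and 377.5. The SI monolayer libraries lay within a narrow range below every SI tissue library, and the LI monolayer libraries overlapped with LI tissue. Npc1l1 was 1.71 lower in SI monolayers than in SI tissue on the log2 scale (SE 0.53, adjusted p = 0.0218), a call that was lost when SI tissue library 2 (adjusted p = 0.0537) or SI monolayer library 1, 2 or 3 was left out (adjusted p = 0.0741, 0.0736 and 0.071). Over all alternatives the adjusted p of this fall ran from 0.000515 to 0.0741. The rise in LI monolayers, at 1.08 (SE 0.64, adjusted p = 0.17), did not pass. The interaction was -2.79 (SE 0.83, adjusted p = 0.0238) and was lost without LI tissue library 2, any SI monolayer library, or LI monolayer library 2 or 3, with adjusted p of 0.0579 to 0.072.

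Carriage of fatty acids through the cytosol separated the 2 binding proteins. Fabp1 (ENSMUSG00000054422, chr6:71199827-71205023, forward strand) encodes the liver form, which is also abundant in the proximal small intestine, and Fabp2 (ENSMUSG00000023057, chr3:122895072-122899506, forward strand) encodes the intestinal form. Fabp1 had 101900, 75530 and 56350 normalized counts in SI tissue and 7955, 7839 and 7664 in SI monolayers. It had 667.2, 192.2 and 23.2 in LI tissue and 258.0, 617.5 and 515.8 in LI monolayers. Every SI tissue library was therefore above every SI monolayer library, while the 2 LI groups overlapped. The fall in SI was 3.28 on the log2 scale (SE 0.76, adjusted p = 0.00515), the difference in LI was 0.71 (SE 0.80, adjusted p = 0.46), and the interaction was -3.99 (SE 1.09, adjusted p = 0.0159).

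Fabp2 had 173600, 120400 and 82570 normalized counts in SI tissue and 17300, 16470 and 16610 in SI monolayers. It had 14500, 19580 and 11320 in LI tissue and 2367, 2899 and 2797 in LI monolayers. It had at least 11320 in every LI tissue library, where Fabp1 had at most 667.2, and in both regions every monolayer library was below every tissue library. The fall with culture was 2.87 in SI (SE 0.29, adjusted p = 2.37e-05) and 2.45 in LI (SE 0.29, adjusted p = 4.98e-05). Per kilobase of exon, the Fabp1 level was 1.1 ± 0.0833 times the Fabp2 level in SI tissue and 0.0337 ± 0.041 times in LI tissue (SD, n = 3). In monolayers this ratio was 0.813 ± 0.0154 for SI and 0.295 ± 0.0938 for LI. The ratios of SI and LI did not overlap in either preparation, and an exact two-sided permutation test gave p = 0.1 for each, the smallest that 3 libraries against 3 allow. These ratios and those below were chosen after the levels were known.

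Promoter sequence was read for 7 of the 10 genes from the RefSeq promoter table of GRCm38.p6. Apoc3, Dgat1 and Dgat2 had no entry. Shown here are the windows before the RefSeq start sites of Fabp1, Fabp2 and Npc1l1, because the 3 genes fell together in SI monolayers while Fabp2 alone of the 3 also fell in LI monolayers. They are written 5′ to 3′ on the gene's strand, with matches to 6 searched motifs in capitals. The Fabp1 window ends 25 bases before the start site.
Fabp1, chr6:71199629-71199854, forward strand: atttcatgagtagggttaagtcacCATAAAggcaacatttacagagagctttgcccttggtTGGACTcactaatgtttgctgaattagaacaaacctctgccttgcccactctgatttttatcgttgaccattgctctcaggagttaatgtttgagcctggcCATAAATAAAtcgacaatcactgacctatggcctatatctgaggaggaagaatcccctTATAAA
Fabp2, chr3:122894822-122895071, forward strand: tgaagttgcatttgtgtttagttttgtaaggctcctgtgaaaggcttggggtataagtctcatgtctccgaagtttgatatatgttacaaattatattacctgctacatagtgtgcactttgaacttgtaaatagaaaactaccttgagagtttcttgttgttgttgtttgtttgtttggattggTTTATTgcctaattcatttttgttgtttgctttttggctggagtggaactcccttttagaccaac
Npc1l1, chr11:6230246-6230495, reverse strand: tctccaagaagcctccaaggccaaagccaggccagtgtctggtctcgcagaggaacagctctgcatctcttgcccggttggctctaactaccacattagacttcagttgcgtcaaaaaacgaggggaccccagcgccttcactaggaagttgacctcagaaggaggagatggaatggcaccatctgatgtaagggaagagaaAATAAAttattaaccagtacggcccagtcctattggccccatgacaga

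The motifs were searched on both strands in the 250 bases before each start site. TATAAA, the core of a TATA box, was found in Fabp1 and Apob and in 12.4% of 32851 promoters. It lay at bases -30 to -25 from the RefSeq start site in Fabp1 and at -60 to -55 in Apob. The GENCODE gene of Fabp1 holds 52 bases of the 250-base window, and the match lies inside it. TTTATG and TTTATT, 2 forms of the site known for the CDX factors of the intestine, were found in 10.8% and 18.1% of all promoters. The first was in Fabp1 in 2 places, 1 of which overlaps a match to the second, and the second was in Fabp1, Fabp2 and Npc1l1. AGTCCA, the shorter form of the site known for HNF4 factors, was in Apoa1 and Fabp1 and in 11.5% of all promoters. AGATAA, a form of the GATA site, and CAAAGTCCA, the longer HNF4 form that contains AGTCCA, were in none of the 7 and in 9.99% and 0.384% of all promoters. A match is only a match of letters, and the absence of one says nothing of the factor.

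Dgat1 and Dgat2, the 2 acyltransferases that complete triglyceride, changed to different degrees. Dgat1 (ENSMUSG00000022555, chr15:76502015-76511953, reverse strand) had 53270, 47760 and 37740 normalized counts in SI tissue and 17120, 17890 and 18090 in SI monolayers. It had 3537, 3261 and 3323 in LI tissue and 1894, 2114 and 1925 in LI monolayers, so that the 4 groups were fully separate. The fall was 1.35 on the log2 scale in SI (SE 0.09, adjusted p = 1.53e-08), and the difference in LI was -0.72 (SE 0.09, adjusted p = 8.16e-06), under the fold threshold. Dgat1 had the most even LI tissue libraries of the 10, with the highest 1.08 times the lowest.

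Dgat2 (ENSMUSG00000030747, chr7:99153658-99182719, reverse strand) was the least changed of the 10. It had 10160, 7513 and 6644 normalized counts in SI tissue and 5955, 6168 and 6491 in SI monolayers, and 2990, 2333 and 1904 in LI tissue against 2030, 1947 and 1795 in LI monolayers. The difference with culture was -0.35 in SI (95% confidence interval -0.75 to 0.04, adjusted p = 0.114) and -0.28 in LI (-0.68 to 0.13, adjusted p = 0.2). The regions were separate in both preparations, with log2 fold changes of 1.79 in tissue and 1.72 in monolayers. Per kilobase of exon, Dgat1 was 5.81 ± 0.567 times Dgat2 in SI tissue, 2.88 ± 0.0597 times in SI monolayers, 1.45 ± 0.286 times in LI tissue and 1.04 ± 0.0857 times in LI monolayers. This ratio did not overlap between any of the groups compared (exact two-sided permutation p = 0.1 in each of the 4 comparisons, the smallest possible).

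Loading of the particle needs Mttp and Apob together, and their proportion differed between the regions. Mttp (ENSMUSG00000028158, chr3:138089854-138144968, reverse strand), the transfer protein, had 128900, 131700 and 88270 normalized counts in SI tissue and 59350, 58180 and 58670 in SI monolayers. It had 1410, 580.3 and 324.9 in LI tissue and 960.8, 1502 and 1290 in LI monolayers. The SI groups did not overlap, yet the difference of -0.95 (SE 0.44, adjusted p = 0.0941) did not pass. Over all alternatives its adjusted p ran from 0.000478 to 0.207 and its value from -1.11 to -0.85, without a call. Exons of Mttp share 457 bases with Trmt10a on the opposite strand, and the strand setting of the counting is not given in the sources used here.

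Apob (ENSMUSG00000020609, chr12:7977648-8016835, forward strand), the scaffold of the chylomicron, was the only gene of the 10 called in opposite directions in the 2 regions with all libraries in the fit. It had 79950, 93130 and 58500 normalized counts in SI tissue and 32510, 32800 and 29760 in SI monolayers, against 2720, 2784 and 1721 in LI tissue and 6922, 5716 and 6356 in LI monolayers. Every monolayer library was below the tissue libraries in SI and above them in LI. The change was -1.25 in SI (SE 0.20, adjusted p = 0.000526) and 1.44 in LI (SE 0.21, adjusted p = 0.000171), and the interaction was -2.69 (SE 0.29, adjusted p = 5.64e-05). Per kilobase of exon, Apob was 0.296 ± 0.0194 times Mttp in SI tissue and 0.24 ± 0.013 times in SI monolayers, and 1.79 ± 0.81 times in LI tissue and 2.37 ± 0.772 times in LI monolayers. The LI ratios overlapped between preparations, and the SI and LI ratios did not overlap in either (exact two-sided permutation p = 0.1, the smallest possible).

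The genes of 3 surface apolipoproteins are neighbours on chromosome 9, within 14.9 kb from the start of Apoa1 to the end of Apoa4. Apoa1 (ENSMUSG00000032083, chr9:46228580-46230466, forward strand) encodes the main protein of high density lipoprotein, Apoc3 (ENSMUSG00000032081, chr9:46232933-46235636, reverse strand) an inhibitor of lipoprotein lipase, and Apoa4 (ENSMUSG00000032080, chr9:46240696-46243459, forward strand) a chylomicron protein that the intestine makes in response to fat. Apoa1 had 289200, 293600 and 211600 normalized counts in SI tissue and 98620, 96810 and 96620 in SI monolayers. It had 3503, 1276 and 175.0 in LI tissue and 2921, 3888 and 3629 in LI monolayers. The SI groups were separate and the LI groups overlapped through LI tissue library 1. The difference of -1.41 in SI (SE 0.75, adjusted p = 0.141) did not pass in the fit of all 4 groups, whose estimate of the spread also covers the LI tissue libraries. It passed with the SI groups alone (-1.38, adjusted p = 1.97e-06), with DESeq2 (-1.45, adjusted p = 0.0403) and without LI tissue library 3 (adjusted p = 0.00783).

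Apoa4 changed more. It had 74960, 56250 and 53910 normalized counts in SI tissue and 4505, 4224 and 4381 in SI monolayers, and 594.8, 164.8 and 13.4 in LI tissue against 274.4, 573.9 and 369.6 in LI monolayers. The SI tissue mean was 14.1 times the SI monolayer mean, and the LI groups overlapped. The fall in SI was 3.78 (SE 0.76, adjusted p = 0.00236), and the interaction of -4.49 (SE 1.08, adjusted p = 0.00893) was the largest among the 10. Exons of Apoa4 share 634 bases with Gm47528 and 632 with Gm10680, both on the opposite strand.

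Apoc3 lay between its neighbours in the size of its fall. It had 13500, 9718 and 8821 normalized counts in SI tissue and 1777, 1458 and 1487 in SI monolayers, and 139.1, 47.6 and 8.93 in LI tissue against 107.8, 130.8 and 136.4 in LI monolayers. The SI groups were separate, and the LI groups overlapped through LI tissue library 1. The fall in SI was 2.73 (SE 0.41, adjusted p = 0.000424), the difference in LI was 1.0 (SE 0.62, adjusted p = 0.186) and the interaction was -3.73 (SE 0.74, adjusted p = 0.00308).

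Relative to Apoa1, the measured levels of Apoa4 and Apoc3 were lower in SI monolayers than in SI tissue. The permutation test used on these ratios cannot give a p under 0.1 with 3 libraries against 3. Per kilobase of exon, Apoa4 was 0.16 ± 0.0257 times Apoa1 in SI tissue and 0.0306 ± 0.000749 times in SI monolayers, a 5.19-fold lower ratio, and Apoc3 was 0.0494 ± 0.00837 and 0.0197 ± 0.00197 times Apoa1, a 2.49-fold lower ratio. Neither ratio overlapped between the SI groups (exact two-sided permutation p = 0.1, the smallest possible). In the LI the Apoa4 ratio was 0.0852 ± 0.0318 in tissue and 0.078 ± 0.0197 in monolayers (exact permutation p = 0.9), and the Apoc3 ratio 0.052 ± 0.00893 and 0.0439 ± 0.00256 (exact permutation p = 0.2), both with overlap.

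Apoa5, the fourth apolipoprotein of the cluster, which the liver makes, had at most 11.9 normalized counts in any library and was not tested. The 6 genes tested on either side had log2 fold changes of -1.61 to 0.24 in SI against LI tissue and -0.59 to 0.08 in monolayers. Sik3, a kinase gene that ends 4.39 kb before Apoa1, and Zpr1, a zinc finger gene beyond Apoa5, were called higher in SI monolayers than in SI tissue, by 1.19 (SE 0.06, adjusted p = 3.36e-11) and 1.14 (SE 0.06, adjusted p = 1.26e-10). They were 2 of 6 neighbours, beside 9.71% of all tested genes. In LI monolayers 2 of the 6 were called higher and 1 lower, beside 14.5% and 23.5%. Between SI and LI tissue 2 were called lower, beside 11.1%. Of 6 neighbours, none was called higher in the SI, whether tissue or monolayers were compared, but with 11.6% and 12.4% of all tested genes called higher this count says little about 6 genes.

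**Figure D3:**
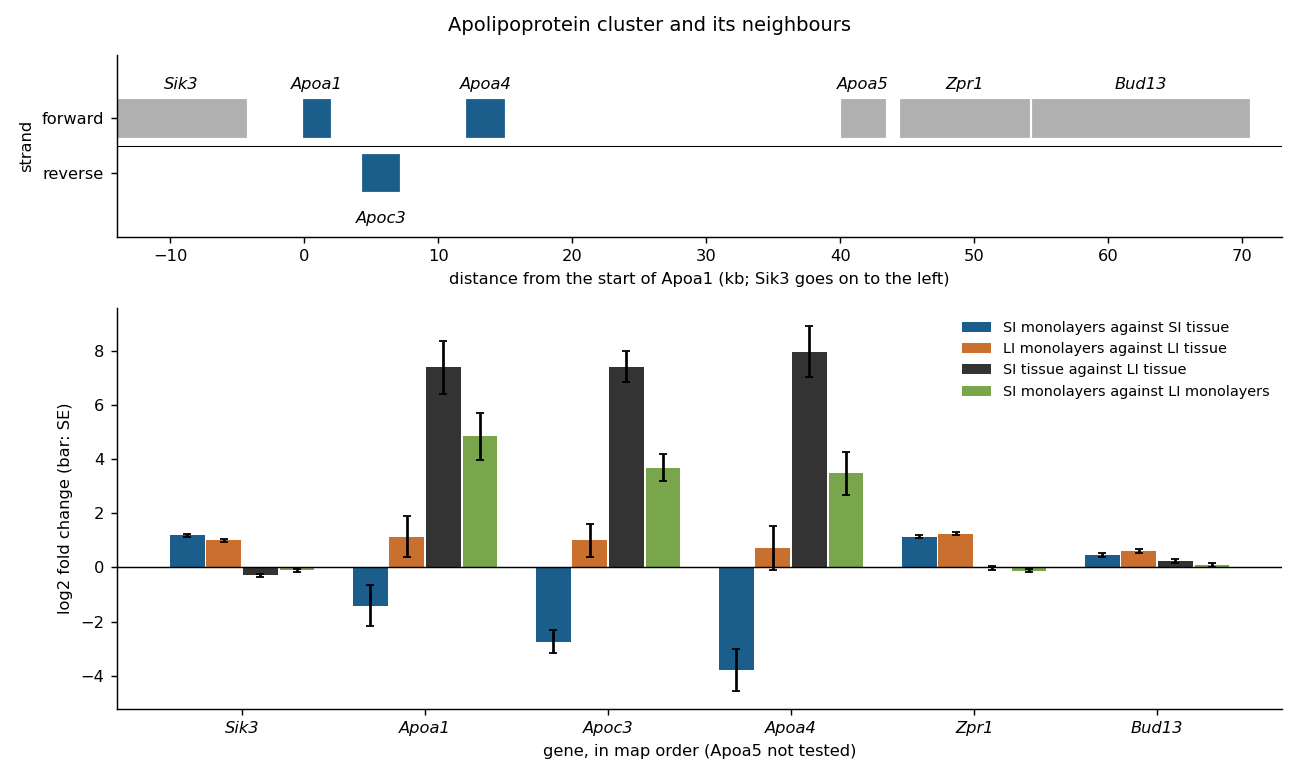
The upper panel maps the apolipoprotein cluster and its nearest neighbours by distance in kb from the start of Apoa1, with the forward strand above the line. The lower panel gives the log2 fold changes with standard errors in 4 comparisons (bars by colour), with SI over LI tissue at 7.38 for Apoa1, 7.41 for Apoc3 and 7.96 for Apoa4, and at -0.29 for Sik3, -0.02 for Zpr1 and 0.24 for Bud13.

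The spread between libraries was unequal. The highest library was 1.39 to 2.1 times the lowest in SI tissue, 1.01 to 1.22 times in SI monolayers and 1.12 to 2.39 times in LI monolayers. In LI tissue it was 1.08 to 44.4 times. SI tissue library 3 was the lowest of its group for all 10 genes.

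In LI tissue 6 genes were at or below 1.32% of the SI tissue mean and differed widely between libraries, in the same order of libraries for each. Apoa4 was at 0.964%, 0.267% and 0.0217% of the SI mean in libraries 1, 2 and 3, and Fabp1 at 0.856%, 0.247% and 0.0298%. Apoa1 was at 1.32%, 0.482% and 0.0661%, and Npc1l1, Apoc3 and Mttp were also highest in library 1 and lowest in library 3. Of the marker lists of the small intestine, 5 of 10 villus enterocyte genes and 3 of 6 Paneth genes had that order. Among them, Sis was at 0.815%, 0.295% and 0.0912% of its SI mean, Lct (lactase) at 0.637%, 0.056% and 0.00841%, and the Paneth cell gene Defa17 at 0.707%, 0.143% and 0.0857%. The summed lists gave 209900, 205400 and 169400 normalized counts in libraries 1, 2 and 3 for villus enterocytes and 36170, 66800 and 29890 for Paneth cells, so that the Paneth sum was highest in library 2. Most of that Paneth sum was a single gene, Ang4, at 30040, 62210 and 28060. Krt20 and Vil1 made up most of the villus enterocyte sum. These sums therefore say little about the other genes of the lists. Whether material from the small intestine had a part in these values was not tested. The other 4 genes were higher and more even, with Apob at 2.23% to 3.61% of the SI mean, Dgat1 at 7.05% to 7.65%, Fabp2 at 9.02% to 15.6% and Dgat2, which had the same order of libraries, at 23.5% to 36.9%.

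LI monolayers showed less spread. Against the SI monolayer mean, Apoa1 was at 3.0%, 3.99% and 3.73% in the 3 libraries, Apoa4 at 6.28%, 13.1% and 8.46% and Npc1l1 at 1.83%, 3.29% and 2.92%. Library 1 was the lowest of its group for 8 of the 10 genes.

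**Figure D4:**
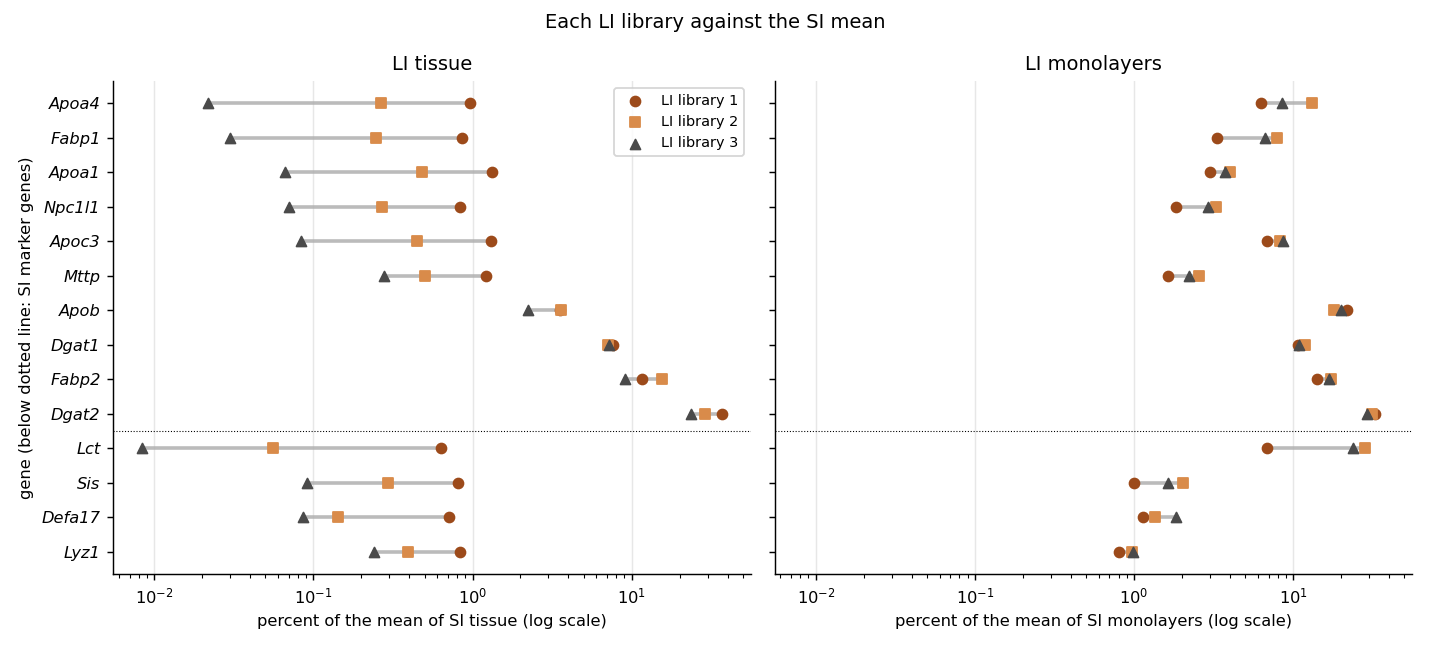
Each LI library is given as a percent of the SI mean of the same preparation on a log axis, for tissue (left) and monolayers (right), with the 10 genes above the dotted line and 4 genes of small intestinal enterocytes and Paneth cells below it. In LI tissue Apoa4 ran from 0.0217% to 0.964% while Dgat1 ran from 7.05% to 7.65%.

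The order of the 10 genes by level also differed between groups. On the scale of normalized counts per kilobase of exon, Apoa1 was highest in SI tissue at 214300 ± 37300 (SD, n = 3), followed by Fabp1 at 140900 ± 41400 and Fabp2 at 130000 ± 47370, and neighbours among these 3 overlapped. Apoa4 came next at 34000 ± 6356 and was separate from both sides. Mttp, Dgat1, Apoc3 and Npc1l1 followed between 18740 and 9695, each overlapping with the next, and Apob at 5540 ± 1254 and Dgat2 at 2629 ± 594.7 were last and separate.

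In LI tissue Fabp2 was first at 15680 ± 4318 and apart from all others, ahead of Apoa1 at 1336 ± 1372 and Dgat1 at 1104 ± 47.4. In SI monolayers Apoa1 stayed first at 78760 ± 896.3, ahead of Fabp2 at 17400 ± 458.4, Fabp1 at 14140 ± 264.8 and Mttp at 9464 ± 95.02, all separate. Apoa4 dropped to the seventh place there at 2408 ± 77.7 and overlapped with Apob. In LI monolayers Apoa1 at 2815 ± 404.9 and Fabp2 at 2785 ± 292.5 overlapped at the top, and Npc1l1 was last at 77.5 ± 22.0, as in LI tissue.

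Other genes of the pathway were counted by list. Of 8 genes of fatty acid uptake and activation, 4 were called lower and 1 higher in SI monolayers than in SI tissue, beside 16.4% and 9.71% of all tested genes, with a median log2 fold change of -0.94. Cd36, the fatty acid translocase, fell from 3726, 2548 and 2012 normalized counts in SI tissue to 69.1, 32.1 and 47.4 in SI monolayers. That was a fall of 5.77 (SE 0.53, adjusted p = 1.09e-05), after which its libraries overlapped with those of LI monolayers, at 17.8 to 52.0 normalized counts, with a difference of 0.58 between SI and LI monolayers (95% confidence interval -0.94 to 2.10, adjusted p = 0.509). The fatty acid ligase Acsl3 moved the other way and rose by 1.45 (SE 0.07, adjusted p = 3.85e-11). In LI monolayers Slc27a2, a very long chain acyl-CoA synthetase, fell by 4.36 (SE 0.21, adjusted p = 1.29e-09).

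Of 11 tested genes of triglyceride synthesis, 3 were called lower and none higher in SI monolayers (median -0.32), beside 16.4% and 9.71% of all tested genes. In LI monolayers 4 were called higher and 1 lower (median 0.05), beside 14.5% and 23.5%. Mogat2, the acyltransferase that starts triglyceride synthesis from monoglyceride and lies 36.4 kb from Dgat2, fell by 1.78 in SI (SE 0.32, adjusted p = 0.00122) and was 7.03 higher in SI than in LI tissue (SE 0.42, adjusted p = 8.95e-07). In LI monolayers Lpin2 rose by 2.22, Gpat4 by 1.52, Agpat2 by 1.09 and Gpat3 by 1.01, while Lpin1, a phosphatase like Lpin2, fell by 1.78. With upper quartile scaling Agpat2 stood at 0.97 there, under the fold threshold. Its fall in SI monolayers, at -1.05, also slipped under the threshold without SI tissue library 2 or when scaled by library totals alone (-0.97 in each).

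Of 11 tested genes of chylomicron assembly and secretion other than the 10, 2 were called lower and none higher in SI monolayers (Apoa2 and Apoe, median -0.63), a share near the 16.4% of all tested genes called lower. None was called in edgeR's interaction test, beside 11.4% of all tested genes called higher and 8.51% lower, and 3 passed the adjusted p alone. Tm6sf2, which is needed for full lipidation of the particle, was 4.02 higher in SI than in LI tissue (SE 0.09, adjusted p = 9.34e-14) and 3.81 higher in monolayers (SE 0.10, adjusted p = 1.92e-13). Its difference with culture in SI was -0.97 (SE 0.08, adjusted p = 9.45e-08), just under the fold threshold, which it passed with DESeq2 or upper quartile scaling (-1.01) and without SI tissue library 3 (-1.07). Sar1b, the small GTPase of chylomicron transport vesicles, and Apobec1, which edits the Apob transcript, were not called in any of the 4 pairwise comparisons. Apobec1 stood at -0.85 in SI against LI tissue and Sar1b at 0.76, both under the fold threshold. Neither overlapped between these groups, with Apobec1 at 2276 to 2500 normalized counts in SI and 4289 to 4790 in LI tissue. Sar1b had 13740 to 16840 and 8519 to 10470. In that comparison 8 of the 11 were not called, and 7 of these passed the adjusted p alone.

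Of 7 genes of lipid droplets and lipolysis, 2 were called lower in SI monolayers and 1 in LI monolayers, beside 16.4% and 23.5% of all tested genes. Lipe, hormone sensitive lipase, fell by 2.57 in SI (SE 0.14, adjusted p = 6.94e-10). Mgll, monoglyceride lipase, fell by 1.70 in SI and by 5.60 in LI (SE 0.38, adjusted p = 2.05e-07), and was 2.08 lower in SI than in LI tissue. Plin2, a droplet coat protein, was 1.94 lower in SI than in LI monolayers (SE 0.09, adjusted p = 1.13e-10).

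Of 8 genes of cholesterol handling, 3 were called higher in SI than in LI tissue and 1 lower (median 0.72), beside 11.6% and 11.1% of all tested genes. In monolayers 5 were called higher and 1 lower (median 2.09), beside 12.4% and 8.88%. Soat2, which esterifies cholesterol, and Abcg5 and Abcg8, the sterol exporter of the brush border, were 5.44, 5.35 and 5.34 higher in SI monolayers than in LI monolayers. Scarb1, a receptor for high density lipoprotein, ran against them, at -2.52 in tissue (SE 0.07, adjusted p = 2.06e-13) and -1.45 in monolayers, and rose with culture in SI by 2.07 (SE 0.07, adjusted p = 1.65e-12).

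Of 8 transcription factors and coactivators of enterocyte lipid genes, 5 were called higher in SI than in LI tissue and 1 lower, beside 11.6% and 11.1% of all tested genes. Among the 5 was Nr1h3, at 1.08, whose call was lost without SI tissue library 1 (0.92) and when scaled by library totals alone. Creb3l3, an activator of apolipoprotein genes, was 6.90 higher in SI tissue (SE 0.43, adjusted p = 1.25e-06) and fell by 1.68 in SI monolayers (SE 0.33, adjusted p = 0.00192). Hnf4a stood at 85.6% to 96.9% of the SI mean in LI tissue, and its relative Hnf4g at 8.83% to 10.6%. Nr1h3, which encodes the oxysterol receptor LXR alpha, fell in both cultures, by 1.95 in SI and 4.45 in LI, and Ppargc1a by 3.02 and 1.29.

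**Figure D5:**
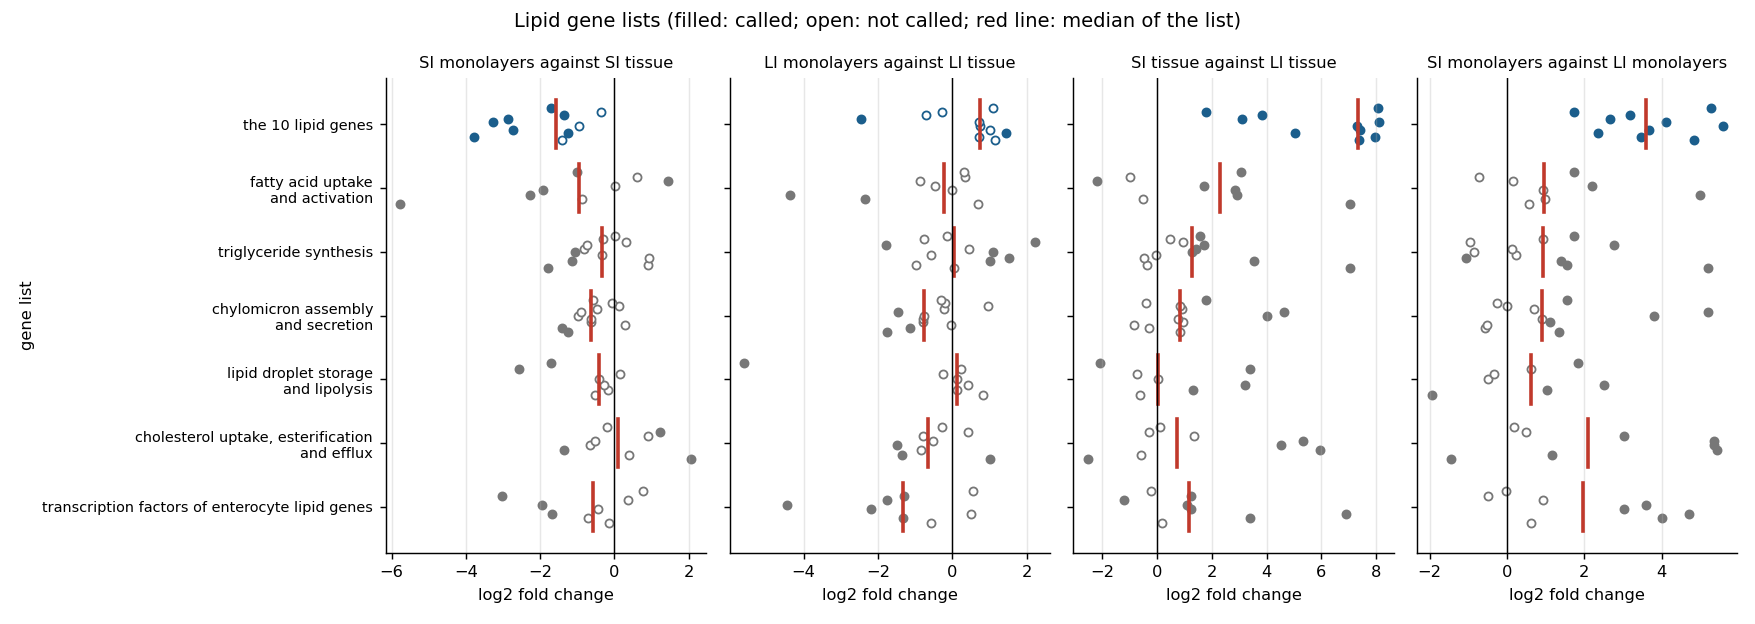
Log2 fold changes of each gene (points, filled where called) in the 10 lipid genes and 6 further lists, with the median of each list as a red line, for 4 comparisons. The 10 genes have medians of -1.56, 0.73, 7.33 and 3.58 from left to right, and the other lists have medians of 0.04 to 2.28 in SI against LI tissue.

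The genes outside the 10 most like 3 of them were sought among 9209 genes with a mean of at least 10 CPM, by Pearson's r of log2 CPM over the 12 libraries. The libraries fall into 4 groups, so r mostly compares group levels. Leaving out the 10 themselves, the closest to Npc1l1 were Slc2a2 (the glucose transporter GLUT2, r = 0.998), Sis (r = 0.997) and Adh6a (r = 0.995). For Fabp1 they were Reg1 (r = 0.991) and the brush border peptidases Mme (r = 0.989) and Anpep (r = 0.988). For Apoa4 they were Enpp7, the alkaline sphingomyelinase (r = 0.984), Reg1 (r = 0.984) and Spns2 (r = 0.983).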

How the data were processed

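Paired-end RNA sequencing reads of 12 libraries were aligned by the authors to GRCm38 with STAR 2.7.9a and counted on GENCODE vM25 genes with featureCounts 2.0.2. The authors deposited counts per gene, without normalization, and a table of normalized signal, in which the counts of each library are divided by 1 DESeq2 size factor. Whether the mates of a pair were counted separately, and the strand setting, are not given in the sources used here, and 73.4% to 77.4% of counts between 1 and 20 were even. Each column was matched to its library by name. Genes were named and placed with a GENCODE annotation of GRCm38 of another release, which named 55227 of 55487 genes.

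Levels are the normalized counts, and levels per kilobase divide them by exon length. Counts were tested with edgeR 4.0.16 in R 4.3.3 (filterByExpr, 19581 genes, TMM scaling, robust quasi-likelihood fits of the 4 group means) with 5 comparisons and Benjamini-Hochberg adjustment over all tested genes, and a gene was called with an adjusted p under 0.05 and a log2 fold change of at least 1 in size. The code was tested on simulated counts. Replicates of monolayers are pooled wells, so p-values measure the spread between these samples, which may be technical. The limit of 3 counts covers counting error only. Ratios of genes were compared with exact permutation tests in scipy 1.17.1. The alternatives were DESeq2 1.42.0, upper quartile scaling, library totals, no filter, at least 10 counts in every library, no minimum fold, only the groups compared, a replicate block, no mitochondrial genes, and each library left out. The members and lists were chosen with earlier results of these data known. Beside the 10 genes, those named are Mogat2, Cd36, Apobec1, Tm6sf2 and Sar1b, the 3 highest and 3 lowest called genes of the pathway lists in each pairwise comparison, Apoa5 and its neighbours, and the 3 genes most like Apoa4, Fabp1 and Npc1l1. Gpat3, Lpin1, Apoa2, Apoe, Hnf4a, Hnf4g and, from the marker lists, Sis, Lct, Krt20, Vil1, Defa17, Lyz1, Ang4, Ttr, Alb, Fgb, Serpina1a, Cyp7a1 and Ahsg were added after their values were seen. The values of 1 gene that this rule names are not reported here.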

Additional observations from a re-analysis of the deposited data

Results flagged for a closer look

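For 18 genes, among the 10 lipid genes and the pathway genes that the naming rule gives, the change from tissue to monolayers differed between the regions in edgeR's interaction test. Over all tested genes 8.51% were called lower in this test and 11.4% higher. The rule picked these pathway genes by their large pairwise changes, from which the interaction is formed. Their count is therefore raised by that choice and cannot be set against those shares. Values are given here as the log2 change in SI minus that in LI with the adjusted p. Among the 10 lipid genes these were Apoa4 (-4.49, adjusted p = 0.00893), Fabp1 (-3.99, adjusted p = 0.0159), Apoc3 (-3.73, adjusted p = 0.00308), Npc1l1 (-2.79, adjusted p = 0.0238) and Apob (-2.69, adjusted p = 5.64e-05). All 5 had a negative change in SI and a positive value in LI, of which only that of Apob was called in LI with all libraries. Npc1l1 lost the interaction without LI tissue library 2 (adjusted p = 0.0579), SI monolayer library 1, 2 or 3 (adjusted p = 0.0626, 0.0629 and 0.0608) or LI monolayer library 2 or 3 (adjusted p = 0.072 and 0.0673).

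Of the pathway genes named by the rule, 8 were more negative in SI than in LI. They were Cd36 at -6.46 (adjusted p = 0.00047), Lipe at -2.79 (adjusted p = 3.91e-08), Creb3l3 at -2.18 (adjusted p = 0.00987), Agpat2 at -2.14 (adjusted p = 8.62e-11), Lpin2 at -1.90 (adjusted p = 1.73e-06), Mogat2 at -1.83 (adjusted p = 0.0182), Ppargc1a at -1.73 (adjusted p = 2.34e-06) and Plin2 at -1.32 (adjusted p = 5.07e-07). The opposite direction was found for Mgll at 3.90 (adjusted p = 9.39e-05), Nr1h3 at 2.50 (adjusted p = 6.94e-06), Acsl3 at 2.34 (adjusted p = 4e-11), Slc27a2 at 2.09 (adjusted p = 4.45e-05) and Scarb1 at 1.07 (adjusted p = 2.88e-07). The result for Mogat2 was lost without SI monolayer library 1 or 2 (-1.71 and -1.69) or LI monolayer library 2 or 3 (-1.64 and -1.63). Outside that rule or the pathway lists, Lct (-6.40, adjusted p = 0.00385), Anpep (-3.25, adjusted p = 0.0172) and Gpat3 (-2.15, adjusted p = 1.72e-07) were also called lower. These are examples, and whole lists had calls in both directions. The 10 villus enterocyte markers had 4 called lower and 1 higher, beside 8.51% and 11.4% of all tested genes. Triglyceride synthesis had 5 of 11 lower and 2 higher, and fatty acid uptake and activation 3 of 8 each way. Cholesterol handling had 2 of 8 higher and none lower, and the transcription factors 3 of 8 higher and 2 lower.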

How the results depend on the processing

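The counts of called lipid genes were 7 for SI monolayers against SI tissue, 2 for LI monolayers against LI tissue, 10 for each comparison of SI with LI and 5 for the interaction. With 1 library left out, the LI culture count ran from 2 to 8, and 8 was reached without LI tissue library 1. In that fit 2935 of 20200 tested genes were called higher and 4570 lower. Over the fits that left out 1 library, 580 of 600 values of single genes kept their side of the threshold, 10 lost the call and 10 gained it. No called value changed sign, and the uncalled interaction of Dgat2 ran from -0.25 to 0.12 over all alternatives. Over the other alternatives 434 of 440 were kept and 6 gained the call. Those 6 include Mttp and Apoa1 in the interaction with DESeq2 (adjusted p = 0.026 and 0.0108). Leaving out LI tissue library 1 also added Mttp (-2.45, adjusted p = 0.00127) and Apoa1 (-3.71, adjusted p = 0.0106) to the interaction, and leaving out library 3 added Apoa1 (-2.00, adjusted p = 0.0154). The cause was not tested. Upper quartile scaling moved the median of all genes in LI monolayers against LI tissue from -0.052 to -0.171. Replicate numbers were no sign of pairing, as deviations of same-numbered libraries correlated at -0.0516 to 0.0563. With the replicate block the counts were 7, 2, 10, 10 and 5, and no call of the 10 genes changed.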
